A study of Mus musculus with 22 samples.

Results

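Matrix metalloproteinases (MMPs), ADAMTS proteinases (a disintegrin and metalloproteinase with thrombospondin motifs) and their tissue inhibitors, the TIMPs, were taken by name from the deposited gene table. Symbols starting with Mmp or Adamts and a number, and Timp1 to Timp4, gave 46 genes, of which 45 were protein-coding in the annotation and were kept as members. The members comprised 22 MMPs, 19 ADAMTS proteinases and 4 TIMPs out of 53379 genes. The filter on low counts left 44 of them for testing, and only Mmp7, with 0 to 10 reads per library, was left out.

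The libraries came from adult male C57/BL6N mice, which arrived at 8 weeks of age and were kept for 4 weeks before surgery. Kainate mice received 70 nl of 20 mM kainate above the right hippocampus and sham mice 0.9% NaCl. Left hippocampi, contralateral to the injection, were collected 24 h later from 8 mice per treatment and pooled into 3 samples each. A pool held hippocampi of 4 or 2 mice. The side is that of the sample titles and the study's methods, while the extraction notes in the labels speak of the right side. Kainate mice were included only if they had convulsive seizures. Sorting of nuclei by NeuN gave a NeuN+ fraction (neurons) and a NeuN- fraction (glia), with 3 kainate and 3 sham neuronal libraries, 3 kainate glial libraries and 2 sham glial libraries (replicates 1 and 3, as 1 preparation failed). The replicates were thus pools of mice, and reads came from the RNA of nuclei. The study sequenced its mRNA libraries on either of 2 instruments, and the instrument was not used in the fits here.

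MMPs and ADAMTS proteinases are zinc-dependent enzymes that cut proteins of the extracellular matrix, and several of them clip receptors and adhesion molecules at the cell surface. TIMPs block the active site of MMPs, and Timp3 also inhibits several ADAMTS proteinases. In the brain the hyalectans (aggrecan, brevican, neurocan and versican), which bind hyaluronan in perineuronal nets around neurons, are known substrates of ADAMTS1, ADAMTS4 and ADAMTS5, and astrocytes are known to induce Timp1 after injury and seizures.

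Total counts ranged from 12058875 to 45428465 per library. Values below are counts scaled to library size (CPM, with TMM factors), and levels of different genes are compared per kilobase of exon. In both fractions the summed markers matched the labels, with summed CPM of 4 neuronal markers of 1370 to 3400 in the 6 neuronal and 292 to 549 in the 5 glial libraries. Of these 4, Tubb3 alone did not separate the fractions, with means of 65.9 and 56.6 CPM in kainate and sham neurons and 79.6 and 54.9 CPM in kainate and sham glia. Summed oligodendrocyte markers were 175 to 389 CPM in neurons and 3880 to 34500 CPM in glia. Both glial libraries of replicate 3 stood apart by a high level of 1134 olfactory receptor genes, which hippocampal cells are not known to use (a list chosen after the values were seen). Their median was 0.561 CPM per kilobase in kainate glia 3 and 0.517 in sham glia 3, and 0.0352 to 0.244 in the other libraries. Kainate glia 2 and sham glia 1 were prepared from 0.05 ng of RNA with 15 cycles, the others from 1 ng with 10 cycles.

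Kainate against sham was tested with edgeR's quasi-likelihood test over 40714 genes, with a false discovery rate (FDR) below 0.25 as the threshold, which the study also used. The study analysed neurons and glia separately, with fewer genes kept. It listed Timp1 in both, Adamts1 in glia and Adamts6 in neurons as upregulated. Here Timp1 was upregulated in neurons (9.92-fold) and in glia (49.9-fold), and Adamts1, a hyalectan-cleaving proteinase, was upregulated in glia (7.32-fold). In neurons 1 of 44 members was upregulated and 0 downregulated, against 0.157% and 0.00737% of all genes tested. In glia 2 of 44 were upregulated and 0 downregulated, against 0.0933% and 0.00737% of all genes. At an unadjusted p under 0.05 edgeR listed 3 members in each fraction (Timp1, Adamts1 and Adamts6 in neurons, Timp1, Adamts1 and Timp4 in glia), where 2.09% and 2.05% of all genes were listed. DESeq2's Wald test called 3 in neurons and 2 in glia, all upregulated, against 1.34% and 1.07% of the genes it gave an adjusted p. No MMP was among them. The median log2 fold change of the members was -0.14 in neurons, where that of all genes was -0.01, and 0.08 in glia, where that of all genes was 0.02.

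Deviations from group means of kainate and sham libraries with the same replicate number correlated at 0.161 to 0.643 in neurons and at 0.76 and 0.787 in glia. On this ground, read from the same data, the number was also fitted as a block within each fraction. In that fit 6 members were upregulated and 5 downregulated in neurons, where 3.19% and 1.9% of all genes were. Upregulated were Timp1, Timp3, Adamts1, Adamts4, Adamts6 and Adamts16, and downregulated were Adamts2, Adamts14, Adamts17, Adamts20 and Mmp17. The glial counts with the block were 2 up (Timp1 and Adamts1) and 5 down (Timp4, Mmp2, Mmp15, Adamts6 and Adamts10), where 2.93% and 2.86% of all genes passed. Kainate glia 2 has no sham partner and carried no weight in the glial difference of that fit. In replicate 1 the sham glial library came from 0.05 ng of RNA with 15 cycles and the kainate one from 1 ng with 10 cycles. Treatment and input cannot be told apart in that pair.

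Counted by overlap of the libraries alone, 7 members were higher and 4 lower in every kainate than in every sham neuronal library, against 7.86% of all genes in either direction. In glia 2 were higher and 2 lower without overlap, against 8.22% of all genes. Members with separate groups in neurons were Timp1, Timp3, Adamts1, Adamts6, Adamts8, Adamts16 and Adamts18 on the higher side and Timp4, Adamts2, Adamts14 and Adamts17 on the lower side. In glia they were Timp1 and Adamts1, and Adamts6 and Adamts10.

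**Figure D1:**
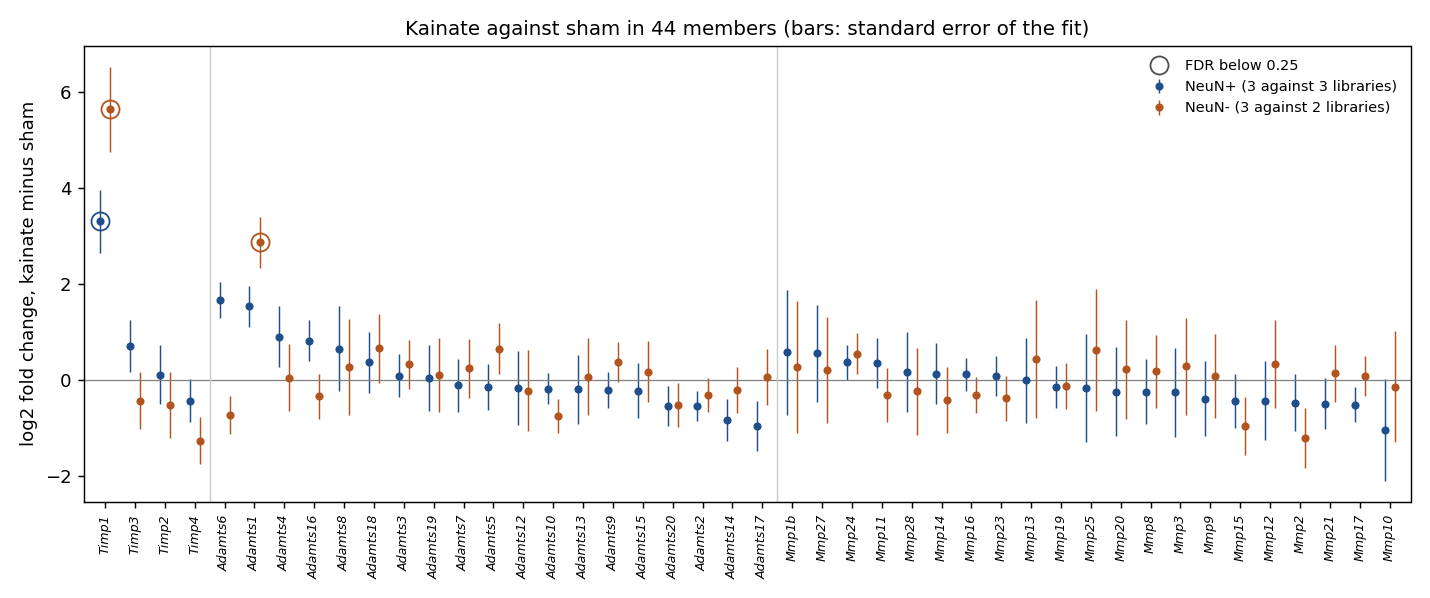
Log2 fold change of kainate against sham (vertical axis) for the 44 members tested, TIMPs at the left, ADAMTS proteinases in the middle and MMPs at the right. Points are fitted values in neurons (blue) and glia (orange), bars their standard error, and circles mark FDR below 0.25. Timp1 stands at 3.31 and 5.64 and Adamts1 in glia at 2.87, while no MMP is circled.

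Timp1 encodes a secreted inhibitor of most MMPs and lies on chromosome X, at 20870166 to 20874735 on the plus strand (mm10). The 250 bases before its start, chrX:20869916-20870165, are shown because Timp1 was the member called in both fractions (RefSeq promoter table, GRCm38.p6).
Timp1: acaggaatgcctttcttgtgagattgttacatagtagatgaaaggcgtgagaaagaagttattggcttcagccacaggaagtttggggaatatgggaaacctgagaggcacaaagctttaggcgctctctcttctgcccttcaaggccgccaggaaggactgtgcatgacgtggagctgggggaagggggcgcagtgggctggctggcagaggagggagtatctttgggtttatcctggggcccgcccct

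These letters were searched on both strands, with 50 bases after the start, for AP-1 sites (TGANTCA and the variant TGAGTAA), the cAMP response element (TGACGTCA) and a STAT site (TTCNNNGAA), all binding sites of factors that respond to signals at the cell surface. Before the start none of them was found. The variant TGAGTAA began 27 bases after the start, within chrX:20870181-20870210, and is in capitals in the next line.
Timp1 after the start: cggtgggtggaTGAGTAAtgcgtccaggaa
Among all 32851 promoter windows 2.68% held TGAGTAA, and Timp1 was the only 1 of the 31 members with a window read here to hold it.

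In sham neurons Timp1 was at 0.739, 0.890 and 0.193 CPM in replicates 1, 2 and 3, from 11, 31 and 6 reads. Kainate neurons had 5.90, 4.33 and 7.84 CPM. The 3 kainate libraries lay above all 3 sham libraries, with a log2 fold change of 3.31 ± 0.66 (SE, FDR = 0.169). With the replicate block the change was 3.33 ± 0.39 (FDR = 1.09e-08). The call without the block was lost when any 1 of the 6 neuronal libraries or kainate glia 2 was left out, with log2 fold changes of 2.87 to 3.77 and FDR from 0.0627 to 0.969 over the 11 such fits.

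Glial Timp1 showed the wider range. Sham glia 1 and 3 had 0.511 and 0.198 CPM, from 8 and 4 reads, and kainate glia had 30.4, 14.8 and 7.59 CPM. All kainate values exceeded both sham values, and the highest was found in replicate 1. The log2 fold change was 5.64 ± 0.89 (FDR = 0.0763), and 5.63 ± 0.54 with the block (FDR = 6.15e-11). It stayed called in 9 of the 11 fits that left out 1 library and was lost without kainate glia 2 or sham glia 1, with log2 fold changes of 4.9 (without kainate glia 1) to 6.46 (without sham glia 1) and FDR up to 0.326. In a fit of the glial libraries alone, with their own estimate of the spread, the value was 5.67 with FDR = 0.707. The study's own separate analysis of glia listed Timp1 as upregulated.

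Per kilobase, Timp1 stood in place 41 of the 45 members in sham glia (0.4 CPM per kilobase) and in place 4 in kainate glia (19.8). In neurons it moved from place 27 (0.684) to place 11 (6.78). Its gene lies within an intron of Syn1, a synaptic vesicle gene on the other strand, with no shared exon bases. Syn1 was at 384, 241 and 220 CPM in sham neurons and at 404, 414 and 246 CPM in kainate neurons, so that its groups overlapped where those of Timp1 did not. Its log2 fold change was 0.33 ± 0.40 in neurons and 0.41 ± 0.46 in glia, with FDR of 1 in both.

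Markers of other cell types were read beside Timp1. Summed CPM of 4 astrocyte markers was 28.8 to 92.1 in kainate and 42.6 to 103 in sham neurons, and 237 to 1620 in kainate and 660 to 2650 in sham glia. With the block 2 of the 4 (Aldh1l1 and Aqp4) were upregulated and the other two (Gja1 and Slc1a3) downregulated in neurons, and Gja1 and Slc1a3 were downregulated in glia. Summed microglial markers were 31.9 to 49.1 CPM in kainate and 25.1 to 29 CPM in sham neurons, without overlap, and 463 to 1380 CPM in kainate and 503 to 2630 CPM in sham glia. Of these 5 genes Csf1r was upregulated in neurons with the block (1.12 ± 0.19), with 16.6, 24 and 30.2 CPM in kainate and 7.99, 12.1 and 12 CPM in sham libraries, and P2ry12 was downregulated (-0.63 ± 0.24). Infiltrating myeloid markers summed to 5.43 to 11.9 CPM in kainate and 7.41 to 15.6 CPM in sham glia. Of the 5 genes 4 passed the filter and none of these was called in either fraction in edgeR's fits, and S100a8, a neutrophil gene that was not tested, was at 0 in 8 of the 11 libraries. Bulk counts of nuclei cannot tell fewer cells of a type from less RNA per nucleus, and the part of these markers in the results was not tested.

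**Figure D2:**
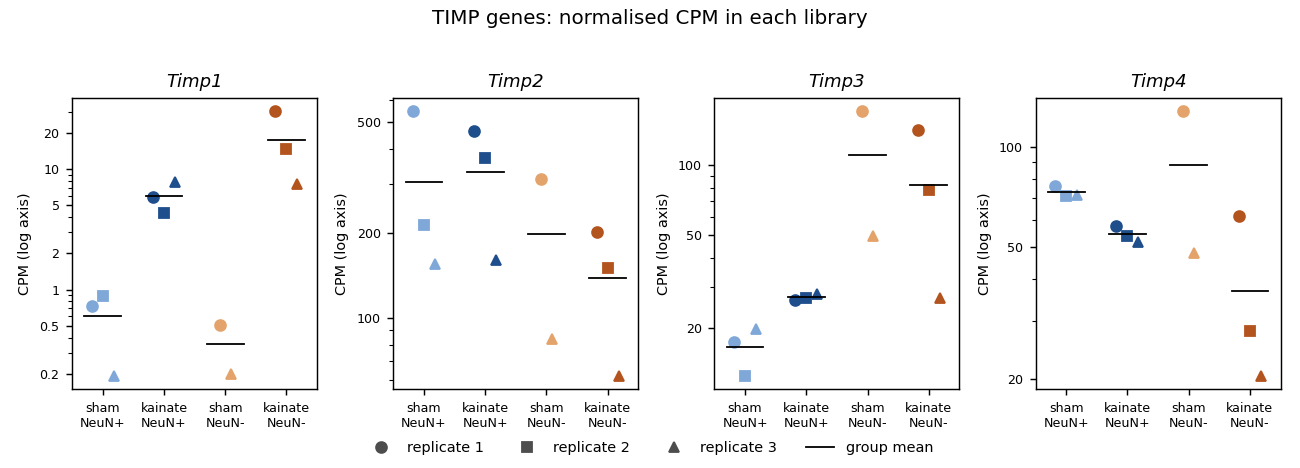
Normalised CPM (log axis) of Timp1 to Timp4 in each of the 11 libraries, by group, with symbols for the replicate number and a line at the group mean. Timp1 separates kainate from sham in both fractions, whereas Timp2 overlaps in both.

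Timp2, also needed by Mmp14 to activate pro-Mmp2 at the cell surface, was the TIMP with the highest level per kilobase in all 4 groups. It was at 547, 215 and 156 CPM in sham neurons and 462, 372 and 160 CPM in kainate neurons. Sham glia had 313 and 83.7 CPM and kainate glia 203, 150 and 62.0 CPM. Groups overlapped in both fractions, and the gene was not called in either, with or without the block.

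Timp3 binds to the matrix and has the widest range of targets among the TIMPs. Its levels were 17.3, 12.4 and 19.8 CPM in sham neurons and 26.3, 26.9 and 27.8 CPM in kainate neurons, without overlap. The log2 fold change in neurons was 0.71 ± 0.54 and was called only with the block (0.74 ± 0.20, FDR = 0.0215). Sham glia had 171 and 49.5 CPM and kainate glia 141, 78.1 and 26.7 CPM, which overlapped. In glia the value was -0.58 ± 0.24 with the block and was not called (FDR = 0.286). Exons of Timp3 share 1733 bases with those of Syn3 on the other strand, and Syn3 was at 48.4, 50 and 60.7 CPM in sham and 32.2, 70.3 and 45.2 CPM in kainate neurons. Its log2 fold change with the block was -0.17 ± 0.21 in neurons (FDR = 0.993). Whether reads were counted by strand is not given in the sources used here, so reads of both genes in the shared bases cannot be told apart.

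Timp4 was called in glia with the block and in neurons in neither fit. Sham neurons had 76.4, 71.2 and 71.6 CPM and kainate neurons 57.8, 53.8 and 51.8 CPM, without overlap, though FDR was 0.38 with the block. In glia the value went from 128 to 62.1 CPM in replicate 1 and from 47.9 to 20.5 CPM in replicate 3, with 27.9 CPM in kainate glia 2, so that kainate glia 1 lay above sham glia 3. The glial log2 fold change was -1.26 ± 0.48 without the block (FDR = 1) and -1.13 ± 0.23 with it (FDR = 0.000825). In the joint fit it ran from -1.99 without kainate glia 1 to -0.35 without sham glia 1, and was called in 1 of the 11 fits that left out 1 library (-1.81 without sham glia 3, FDR = 0.23). Gene Syn2, which surrounds Timp4 and shares 90 exon bases, was at 130 and 70.4 CPM in sham and 90.3, 100 and 61.5 CPM in kainate glia, and was not called (with the block -0.36 ± 0.22, FDR = 0.691).

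Adamts1, which cuts aggrecan and versican, lies on chromosome 16 at 85793827 to 85803113 on the minus strand. Its 250 bases before the start, chr16:85803114-85803363, are given for comparison with Timp1, as the other member called without the block. None of the 4 motifs was found in them.
Adamts1: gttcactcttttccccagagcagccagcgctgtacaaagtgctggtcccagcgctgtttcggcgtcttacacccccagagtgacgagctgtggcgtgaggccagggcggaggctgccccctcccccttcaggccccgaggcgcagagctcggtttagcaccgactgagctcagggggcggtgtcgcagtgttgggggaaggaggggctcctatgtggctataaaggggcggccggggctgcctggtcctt

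Sham glia 1 and 3 had 82.3 and 38.3 CPM of Adamts1, and kainate glia had 720, 355 and 248 CPM. Every kainate library exceeded both sham libraries, and within replicates 1 and 3 the kainate value was the higher in each. The log2 fold change was 2.87 ± 0.54 (FDR = 0.142), and 2.91 ± 0.24 with the block (FDR = 4.48e-13). Without the block the call held in 5 of the 11 fits that left out 1 library. It was lost without kainate glia 1, kainate glia 2, sham glia 1, kainate neurons 2, sham neurons 2 or sham neurons 3, with values of 2.21 to 3.56 and FDR up to 0.42. In the fit of glia alone the change was 2.91 with FDR = 1, whereas the study's own separate analysis of glia listed Adamts1 as upregulated.

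Neuronal Adamts1 was at 41.4, 39.4 and 46.1 CPM in sham and at 135, 134 and 98.4 CPM in kainate libraries. The groups were apart by more than their spread. The log2 fold change of 1.54 ± 0.44 was not called in the joint fit (FDR = 0.672), was called with the block (1.52 ± 0.19, FDR = 3.46e-08) and was called in a fit of neurons alone (1.52, FDR = 0.0208). Per kilobase its mean was 83.2 CPM per kilobase in kainate glia, the highest of the 45 members, and 11.4 in sham glia. The libraries of Adamts1 and Adamts4, the next in order, overlapped in kainate glia.

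Adamts6, a proteinase linked to fibrillin microfibrils, differed in direction between the fractions. In neurons it was at 20.4, 11.2 and 24.3 CPM in sham and 57.4, 54.2 and 66.6 CPM in kainate libraries. In glia it was at 61.3 and 34.2 CPM in sham and 33.1, 27.9 and 25.3 CPM in kainate libraries. The kainate values were all above the sham values in neurons and all below them in glia. The neuronal change of 1.67 ± 0.37 missed the threshold (FDR = 0.255), and passed with the block (1.74 ± 0.21, FDR = 2.83e-08) and in the fit of neurons alone (1.69, FDR = 0.0722). The glial change was -0.73 ± 0.40 (FDR = 1), and -0.66 ± 0.25 with the block (FDR = 0.221). Without sham glia 1 the joint fit gave -0.23 in glia and 1.67 in neurons.

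The test of the difference itself, the kainate effect in neurons minus that in glia, called 0 members in edgeR's joint fit, where 0.00246% of all genes passed. At an unadjusted p under 0.05 it listed 2 (Adamts6 and Timp1), against 0.909% of all genes, and DESeq2's Wald test called 1 (Adamts6), against 0.174%. With the block 5 members were called, against 1.94% of all genes. The fit with the block did not match the neuronal and glial libraries sorted from the same pool. For Adamts6 the difference on the log2 scale was 2.40 ± 0.33 (FDR = 6.13e-06). The kainate effect was greater in neurons than in glia also for Adamts16 and Timp3, and greater in glia for Timp1 and Adamts1. The Timp3 difference rested on sham glia 1, as the joint fit gave 1.14 with it and -0.05 without it.

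Adamts4, the hyalectan-cleaving enzyme with the highest glial level in sham, was called for kainate in neurons with the block, while its difference between the fractions was not called (0.66 ± 0.29, FDR = 0.623). Sham neurons had 3.36, 6.98 and 10.7 CPM and kainate neurons 5.62, 12.3 and 21.5 CPM. These ranges overlapped, while within each replicate number the kainate library was the higher. The log2 fold change was 0.90 ± 0.64 without the block (FDR = 1) and 0.87 ± 0.20 with it (FDR = 0.00333). The joint fit gave 0.36 without kainate neurons 3 and 1.34 without sham neurons 3. Glial levels were 559 and 128 CPM in sham and 553, 345 and 174 CPM in kainate libraries, with a log2 fold change of 0.06 ± 0.70 that was not called.

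Adamts16 was at 18.1, 22.1 and 12.3 CPM in sham and 25.5, 38.6 and 28.3 CPM in kainate neurons, without overlap. It was called with the block (0.84 ± 0.24, FDR = 0.0352). Sham glia had 11.1 and 15.6 CPM and kainate glia 4.45, 12.7 and 14.4 CPM, which overlapped. Adamts16 is not counted among the 7 proteoglycanases. Of those, 2 (Adamts1 and Adamts4) were upregulated and 1 (Adamts20) downregulated in neurons with the block, against 3.19% and 1.9% of all genes, and Adamts5, Adamts8, Adamts9 and Adamts15 were called in neither fraction in the fits with and without it.

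Downregulated members in neurons were led by Adamts17, another enzyme tied to microfibrils. It was at 71.2, 77.4 and 88.5 CPM in sham and at 36, 54.5 and 31.6 CPM in kainate libraries. The highest kainate value was below the lowest sham value, and the change with the block was -0.99 ± 0.21 (FDR = 0.00111). Glial levels of 5.82 and 20.3 CPM in sham and 4.58, 19.3 and 17.0 CPM in kainate libraries overlapped.

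Adamts2 and Adamts14 both remove the N-propeptide of fibrillar procollagens. Adamts2 had 33.0, 32.6 and 27.0 CPM in sham and 23.0, 23.4 and 17.3 CPM in kainate neurons (with the block -0.55 ± 0.21, FDR = 0.231). Adamts14 had 6.18, 9.56 and 9.12 CPM in sham and 3.98, 5.63 and 4.28 CPM in kainate neurons (-0.83 ± 0.29, FDR = 0.156). Neither pair of groups overlapped, and neither gene was called in glia. The third procollagen enzyme, Adamts3, which also cuts reelin, overlapped in neurons with 38.9, 51.6 and 37.9 CPM in sham and 37.6, 53.7 and 45.5 CPM in kainate libraries.

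Adamts20 and Mmp17 were downregulated with the block although their kainate and sham libraries overlapped, since within each replicate number the kainate library was the lower. Adamts20, related to the versican-cleaving Adamts9, was at 116, 107 and 95.3 CPM in sham and 108, 66.8 and 45.4 CPM in kainate neurons (with the block -0.62 ± 0.20, FDR = 0.0763). Mmp17, a membrane-type MMP held by a lipid anchor, was at 544, 351 and 379 CPM in sham and 382, 315 and 199 CPM in kainate neurons (-0.53 ± 0.18, FDR = 0.127). Without kainate neurons 3 the joint fit gave -0.28 for both genes, and without kainate neurons 1 it gave -0.92 for Adamts20 and -0.72 for Mmp17. Mmp17 was the only MMP called for kainate in neurons in either fit.

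Among glial MMPs the gelatinase Mmp2 and the membrane-type Mmp15 were downregulated with the block. Mmp2 was at 34.3 and 14.1 CPM in sham and 16.4, 9.13 and 6.13 CPM in kainate glia (-1.13 ± 0.33, FDR = 0.049). Mmp15 was at 88.3 and 27.2 CPM in sham and 51.7, 27.5 and 10.5 CPM in kainate glia (-1.06 ± 0.28, FDR = 0.0168). Both sets overlapped, as kainate glia 1 lay above sham glia 3 for either gene. The joint fit gave Mmp15 a value of 0.17 without sham glia 1 and -1.72 without kainate glia 1, and Mmp2 values of -0.39 and -1.79.

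Adamts10 in glia fell from 76.7 to 42.0 CPM in replicate 1 and from 51.6 to 33.0 CPM in replicate 3, with 40.3 CPM in kainate glia 2. Its change with the block was -0.76 ± 0.23 (FDR = 0.0635), and the kainate values were all below the sham values. The joint fit gave -0.74, and -0.40 without sham glia 1. In the fit with the block glial markers were also downregulated, among them 3 of 4 oligodendrocyte markers (Mbp and Mog included), 3 of 3 precursor markers, Gja1 and Slc1a3 of 4 astrocyte markers, and P2ry12 and Tmem119 of 5 microglial markers. The summed oligodendrocyte markers were 7320 to 34500 CPM in sham and 3880 to 24300 CPM in kainate glia, and their part in the glial members was not tested.

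**Figure D3:**
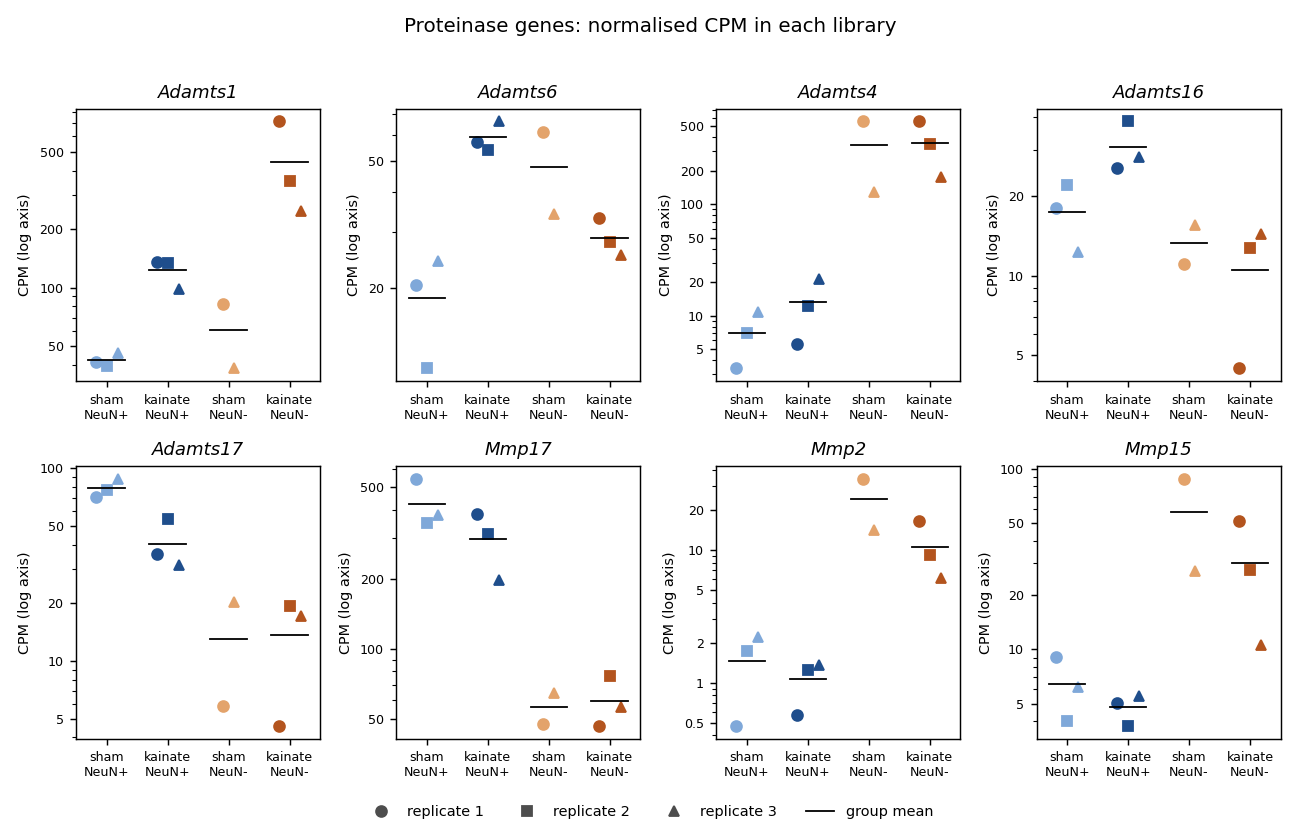
Normalised CPM (log axis) of 8 proteinase genes in each library, by group, with symbols for the replicate number and a line at the group mean. Adamts1 is higher after kainate in both fractions, Adamts6 is higher in neurons and lower in glia, and Mmp2 and Mmp15 fall within replicates 1 and 3 of glia.

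The remaining members were not called for kainate in either fraction, with or without the block. Without the block, log2 fold changes of the 43 members not called in neurons ran from -1.04 (Mmp10) to 1.67 (Adamts6), and of the 42 not called in glia from -1.26 (Timp4) to 0.66 (Adamts18). Mmp9, a gelatinase known for roles at synapses, was at 2.48, 6.98 and 4.48 CPM in sham and 2.06, 3.95 and 4.68 CPM in kainate neurons. Its glial levels were 1.09 and 6.99 CPM in sham and 0.690, 7.26 and 4.92 CPM in kainate libraries, so that a difference was not detectable in either fraction at this spread. Mmp9 is named here as the other gelatinase, outside the rule for named genes.

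Of the MMPs 9 lie side by side on chromosome 9, between 7272514 and 7699585 (Mmp3, Mmp7, Mmp8, Mmp10, Mmp12, Mmp13, Mmp1b, Mmp20 and Mmp27), among them collagenases, stromelysins and the matrilysin. Their levels were 0 to 6.18 CPM. To place such levels, each member was compared per kilobase with a level that 29 of the 1134 olfactory receptor genes exceeded in the same library. Of the 45 members, 14 were above it in all 11 libraries, 16 in 3 to 10 libraries, 6 in 1 or 2 and 9 in none. The chromosome 9 MMPs were above it in at most 2 libraries, and were called in neither fraction.

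The promoter windows of 7 of these 9 genes held the AP-1 letters TGANTCA before the start, and no other of the 31 members with a window read here did. Across all windows the share was 7.81%. The sites are shown because they are the only matches among the members. The windows of Mmp8 and Mmp27, like those of Timp1 and Adamts1, hold none. Each line gives 30 bases on the strand of the gene, 5' to 3', with the match in capitals (GRCm38.p6). Mmp7 and Mmp12 have 2 windows each, and 1 of the 2 holds the match. For Mmp12 the start meant is the one within the annotated gene, and the window at the start of the gene holds no match.
Mmp3, chr9:7445765-7445794, plus strand, 46 bases before the start: ggaagcaattaTGAGTCAgttttcgggtga
Mmp7, chr9:7692016-7692045, plus strand, 63 bases before the start: aagtgtgcaaaTGAGTCAcctatttccaca
Mmp10, chr9:7502268-7502297, plus strand, 63 bases before the start: tagcacccatgTGAGTCAtgcttagtgacc
Mmp12, chr9:7347319-7347348, plus strand, 44 bases before the start: gacatcaacagTGAGTCAgatagaggattt
Mmp13, chr9:7272468-7272497, plus strand, 35 bases before the start: ccccaaagtggTGACTCAtcactatcatgc
Mmp1b, chr9:7388101-7388130, minus strand, 93 bases before the start: gttacaaagccTGAGTCAtatagcctctgg
Mmp20, chr9:7628125-7628154, plus strand, 95 bases before the start: catttgagacaTGAATCAtcacttacaggg
A match describes the letters alone. The cAMP response element (1.79% of all windows) was found in no member window, and the STAT site (8.3% of all windows) in that of Mmp23.

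Neurons and glia were next compared over both treatments. Without a block 10 members were higher and 14 lower in neurons, against 16.8% and 20.4% of all genes. With the pool as a block 12 were higher and 19 lower, against 24.9% and 34.8%. Of the 14 lower without a block, Mmp13, Mmp1b and Adamts19 were at the level of the olfactory receptor genes in all 11 libraries. The median over the members was -0.42, beside -0.47 over all genes. Membrane-type MMPs split between the fractions, with Mmp16, Mmp17 and Mmp24 higher in neurons and Mmp14 and Mmp15 higher in glia.

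Mmp17 was the member furthest towards neurons, with a log2 difference of 2.63 ± 0.31 (FDR = 4.88e-05). Its glial levels were 47.3 and 64.4 CPM in sham and 46.4, 76.3 and 55.9 CPM in kainate libraries, all below the 199 CPM that was its lowest neuronal value. Mmp16, a membrane-type MMP, was at 235, 157 and 193 CPM in sham and 236, 191 and 209 CPM in kainate neurons. Its glial values of 80.3 and 43.2 CPM in sham and 47.0, 46.6 and 55.7 CPM in kainate libraries lay below all of these (1.88 ± 0.27, FDR = 0.000184).

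Mmp24, the membrane-type MMP known from neurons, had 70.4, 37.0 and 43.0 CPM in sham and 76.8, 62.4 and 55.1 CPM in kainate neurons. In glia it had 11.2 and 13.2 CPM in sham and 11.3, 25.0 and 17.6 CPM in kainate libraries (1.94 ± 0.30, FDR = 0.000306), although 637 of its exon bases are shared with BC029722 on the other strand. Adamts3 (2.29 ± 0.36, FDR = 0.000424), Adamts17 (2.08 ± 0.42, FDR = 0.00249) and Adamts10 (1.12 ± 0.25, FDR = 0.00485) were the ADAMTS proteinases furthest towards neurons among those called, and Adamts8 at 1.19 ± 0.68 was not called (FDR = 0.264). Glial Adamts3 was at 4.6 and 11.5 CPM in sham and 4.2, 13.9 and 12.3 CPM in kainate libraries, below every neuronal library. Adamts10 was at 127, 102 and 115 CPM in sham neurons and 113, 115 and 75.6 CPM in kainate neurons, and its lowest neuronal value was just below the 76.7 CPM of sham glia 1.

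Adamts4 was furthest towards glia (-5.18 ± 0.54, FDR = 3.41e-05), with a lowest glial value of 128 CPM and a highest neuronal value of 21.5 CPM. Mmp14, the activator of pro-Mmp2, was at 106 and 25.0 CPM in sham and 81.8, 47.3 and 18.3 CPM in kainate glia. In neurons it was at 2.42, 3.47 and 5.45 CPM in sham and 1.64, 4.10 and 6.71 CPM in kainate libraries (-3.83 ± 0.51, FDR = 0.000111). The fractions did not overlap for either gene.

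Mmp2 itself had 0.470, 1.72 and 2.19 CPM in sham and 0.569, 1.25 and 1.35 CPM in kainate neurons, all below its glial values (-3.65 ± 0.46, FDR = 7.24e-05). Mmp15 had 9.06, 3.99 and 6.19 CPM in sham and 5.05, 3.75 and 5.49 CPM in kainate neurons (-2.91 ± 0.43, FDR = 0.000238). Timp3 was lower in neurons as well (-2.17 ± 0.41, FDR = 0.00154), though kainate glia 3 at 26.7 CPM lay within the neuronal range. Adamts5, a main aggrecanase of cartilage, had 2.55, 1.61 and 1.93 CPM in sham and 1.92, 1.43 and 2.16 CPM in kainate neurons. Its glial levels of 7.92 and 4.41 CPM in sham and 15.3, 7.16 and 6.74 CPM in kainate libraries were all higher (-2.01 ± 0.35, FDR = 0.000969), although it was above the olfactory receptor level in only 2 libraries.

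**Figure D4:**
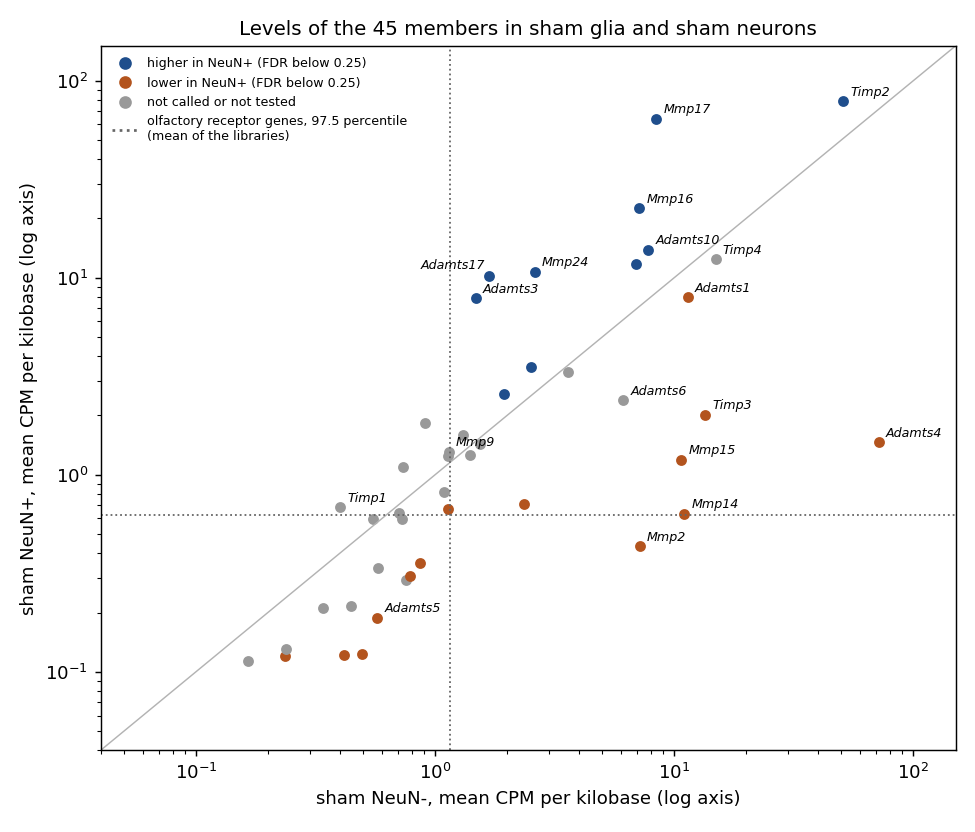
Mean level of the 45 members in sham glia (horizontal) and sham neurons (vertical), in CPM per kilobase of exon on log axes. Colours give the call of neurons against glia over both treatments, dotted lines the level exceeded by 29 of 1134 olfactory receptor genes (mean of the libraries), and the diagonal equal levels. Mmp17 (64.2 in neurons) and Mmp16 (22.5) lie above the diagonal, and Adamts4 (71.5 in glia), Mmp14 (11) and Mmp2 below it.

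Per kilobase, the order in sham neurons began with Timp2 (78.5), Mmp17 (64.2), Mmp16 (22.5), Adamts10 (13.9) and Timp4 (12.4). Timp2 and Mmp17 overlapped between libraries there once divided by length. In sham glia it began with Adamts4 (71.5), Timp2 (51.0), Timp4 (14.9), Timp3 (13.5) and Adamts1 (11.4), a group with 2 libraries that differed more than 2-fold for each of these genes. Kainate glia began with Adamts1 (83.2), Adamts4 (74.3), Timp2 (35.5), Timp1 (19.8) and Timp3 (10.1).

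Genes that act with these enzymes were read from lists set with the members. Of 16 genes of perineuronal nets and hyalectans 1 was upregulated in neurons without the block by edgeR (0.157% of all genes) and 0 in glia (0.0933%), where 5 had an unadjusted p under 0.05 (2.05% of all genes). With the block 2 were upregulated and 2 downregulated in neurons, against 3.19% and 1.9% of all genes, and 3 upregulated and 7 downregulated in glia, against 2.93% and 2.86%. The median log2 fold change with the block was 0.11 in neurons, beside 0 over all genes, and -0.22 in glia, beside 0.11 over all genes. Tnc, the matrix glycoprotein tenascin C, had 4.77, 6.86 and 7.70 CPM in sham and 26.2, 21.9 and 41.3 CPM in kainate neurons and was called without the block (2.20 ± 0.36, FDR = 0.0738). Acan, the aggrecan core protein, had 4.36, 7.24 and 6.22 CPM in sham and 19.4, 13.1 and 20 CPM in kainate neurons (with the block 1.54 ± 0.27, FDR = 6.29e-05). Neither pair of groups overlapped.

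In glia the substrates on the lower side were Hapln1, a link protein (with the block -2.59 ± 0.33), and Bcan, the brevican core protein (-2.02 ± 0.29). Both had FDR below 0.25. Hapln1 had 33.2 and 9.52 CPM in sham and 5.08, 3.19 and 1.71 CPM in kainate glia, without overlap. Bcan had 2110 and 776 CPM in sham and 991, 333 and 101 CPM in kainate glia, with overlap. Cspg4, Cspg5 and Ptprz1, other proteoglycans of glia, were also lower, with log2 fold changes of -1.41, -1.35 and -1.14. Has2, a hyaluronan synthase, was the substrate-making gene that rose most in glia, from 7.03 and 3.02 CPM to 38.6, 23.5 and 15.4 CPM (2.40 ± 0.36, FDR = 4.04e-06). Tnc rose in glia too, from 22.9 and 28.8 CPM in sham to 73.2, 105 and 80.9 CPM in kainate libraries, without overlap (1.58 ± 0.25, FDR = 1.95e-05). The list includes Cspg4, itself a marker of precursors, and the part of the lower glial markers given above in the lower values was not tested.

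**Figure D5:**
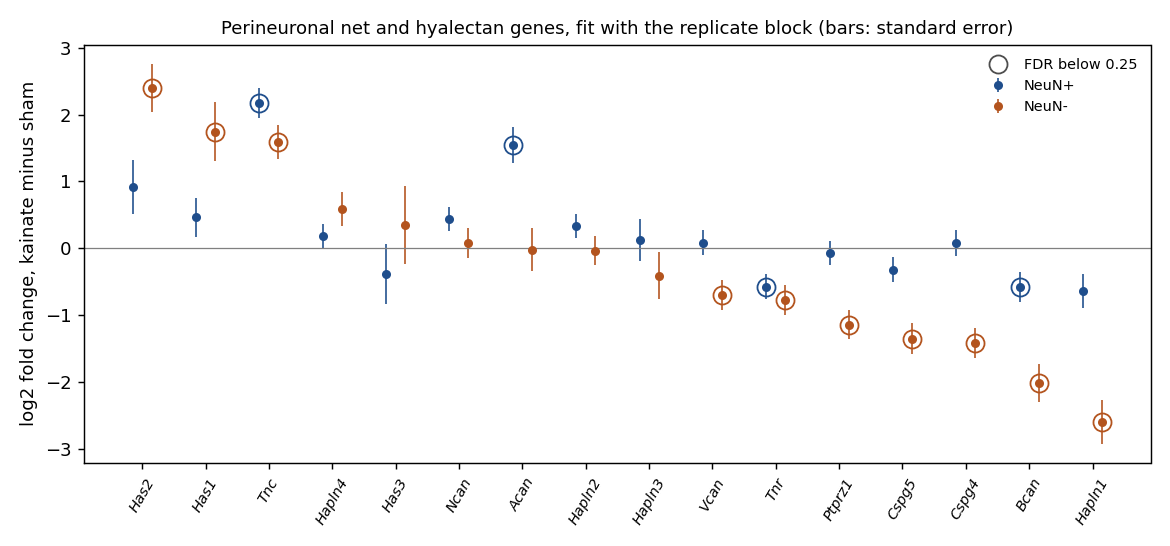
Log2 fold change of kainate against sham, fitted with the replicate block, for 16 genes of perineuronal nets and hyalectans in neurons (blue) and glia (orange). Bars are standard errors and circles mark FDR below 0.25. Has2, Has1 and Tnc lie above 0 in glia and Bcan and Hapln1 near -2 or lower, and Acan is circled in neurons.

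Of 14 genes that activate, bind or clear these enzymes 0 were called without the block by edgeR in either fraction, with 1 in neurons and 4 in glia at an unadjusted p under 0.05 (2.09% and 2.05% of all genes). With it 4 were upregulated and 0 downregulated in neurons (3.19% and 1.9% of all genes), and 6 were upregulated and 2 downregulated in glia (2.93% and 2.86% of all genes). Cd63, a tetraspanin known as a cell surface partner of Timp1, had 8.73, 2.64 and 4.64 CPM in sham and 17.4, 11 and 20.5 CPM in kainate neurons (with the block 1.74 ± 0.22, FDR = 4.92e-08). In glia it had 195 and 21 CPM in sham and 723, 179 and 136 CPM in kainate libraries (2.28 ± 0.25, FDR = 2.94e-09). The neuronal groups were apart and the glial ones overlapped.

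Plat, which makes plasmin from plasminogen, rose in glia (1.42 ± 0.23, FDR = 1.51e-05), as did the urokinase receptor gene Plaur (1.77 ± 0.34, FDR = 0.00042) and the protease trap A2m (1.39 ± 0.37, FDR = 0.0217). Furin, the convertase that removes the prodomain of several ADAMTS proteinases and membrane-type MMPs, rose in neurons (0.88 ± 0.19, FDR = 0.00127) and in glia (0.69 ± 0.23, FDR = 0.103). Serpine2 fell in glia (-0.78 ± 0.22, FDR = 0.0321), and Pcsk6 rose in neurons (0.57 ± 0.21, FDR = 0.22) and fell in glia (-0.85 ± 0.24, FDR = 0.0407). All values in this paragraph are from the fit with the block.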

How the data were processed

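The authors trimmed reads with Trim Galore 0.4.3, aligned them to mm10 (Rsubread) and assigned those that mapped uniquely to genes of GENCODE M16 (featureCounts). The deposited values are raw counts of 53379 genes in 11 mRNA libraries (SMART-Seq v4 from sorted nuclei). Symbols, biotypes and exon lengths came from GENCODE M21 by gene ID, and 105 genes without a symbol (at most 0.0372% of a library's counts) were left out. edgeR 4.0.16 (filterByExpr, minimum count 10, minimum total count 15; TMM; glmQLFit with legacy=TRUE; R 4.3.3) was fitted to 4 group means over all 11 libraries, with p-values adjusted by Benjamini-Hochberg over 40714 genes. The common biological coefficient of variation was 0.6 and residual degrees of freedom 7, against 0.251 and 3 with the replicate block. Deviations from group means of same-numbered libraries correlated at 0.643, 0.161 and 0.491 in neurons and 0.76 and 0.787 in glia, so the numbers of the titles were taken as pairs. The glial values are not independent, since the deviations of the only sham libraries mirror each other. Libraries with different numbers were not compared. Replicates, which are separate pools, differed beyond the error of counting reads, the only noise in this measure (chi-square per degree of freedom 27.4 to 105). DESeq2 1.42.0, limma 3.58.1, other filters and subsets of libraries served as alternatives. Named members were Timp1 to Timp4, those called for kainate with or without the block, the 6 highest and 6 lowest of neurons against glia among those called, and up to 8 called genes per list. Members and lists were chosen with earlier results of these data known. Bisulfite samples were not analysed here, and a few genes of the lists are not reported here by name. Promoter letters came from RefSeq (GRCm38.p6). Member windows on chromosome 18, where Adamts19 lies, were not read, while the shares over all windows were taken without this limit. With it 31 of 45 members had a window.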

Additional observations from a re-analysis of the deposited data

Results flagged for a closer look

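For 5 members, against 1.94% of all genes, the effect of kainate differed between neurons and glia by a test of the difference itself, in edgeR's fit with the replicate block. That fit did not match the neuronal and glial libraries sorted from the same pool. The effect in neurons minus that in glia, on the log2 scale, was 2.40 ± 0.33 for Adamts6 (FDR = 6.13e-06), 1.32 ± 0.31 for Timp3 (FDR = 0.017) and 1.5 ± 0.39 for Adamts16 (FDR = 0.0395). It was -1.39 ± 0.29 for Adamts1 (FDR = 0.00456) and -2.30 ± 0.69 for Timp1 (FDR = 0.124). Adamts1 and Timp1 were upregulated in both fractions of that fit, by more in glia. Adamts6 was upregulated in neurons and downregulated in glia. Timp3 and Adamts16 were upregulated in neurons and not called in glia. Without the block none of the 5 differences was called (FDR of 1 for each), with values of 2.41 for Adamts6, -2.33 for Timp1 and 1.14 for Timp3. With 1 library left out at a time these unblocked differences ran from -3.15 (without sham glia 1) to -1.62 (without kainate glia 1) for Timp1 and from -2.02 to -0.73 for Adamts1, at the same libraries. For Adamts16 they ran from 0.82 to 1.61, for Adamts6 from 1.9 to 2.78 and for Timp3 from -0.05 to 1.85.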

How the results depend on the processing

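Of 765 log2 fold changes of named members under another setting, 702 kept their direction and side of the threshold, 35 passed it newly, 24 lost it and 4 reversed. The reversals were Mmp15 in glia (0.17 without sham glia 1 and 0.22 without both low-input libraries) and the difference between fractions of Timp3 (-0.05 and -0.08), which ran from -1.72 to 0.17 and from -0.05 to 1.85 with 1 library left out at a time. Members called in neurons (1 as reported) were 3 with DESeq2's Wald test, 3 with separate fits per fraction, 3 without both glial libraries of replicate 3 (a setting chosen after seeing the data), 2 with CPM of at least 1 in 3 libraries, 2 with the newer quasi-likelihood method, 2 without both low-input libraries, 0 with low input as a covariate and 0 at FDR below 0.05. In glia (2 as reported) they were 0 with separate fits, 0 without both low-input libraries, 0 at FDR below 0.05 and 1 with low input as a covariate. The difference between fractions (0) gave 1 with DESeq2, and neurons against glia (24) gave 14 at FDR below 0.05. The replicate block gave 11, 7 and 5 for neurons, glia and their difference, and changed no other call of the kainate comparisons. Shares of all genes were counted only for the fits with and without a block and for DESeq2's Wald test. Under the other settings the counts of members have no such share beside them and are not results about the members. With 1 library left out at a time the count in neurons ran from 0 to 3. For the comparisons that use glia such counts are not given. Without 1 of the 2 sham glial libraries, the lone sham glial library was assumed to vary like the other groups. The 12 members named for neurons against glia were called in all 22 settings. The 2 sham glial libraries, and 4 to 31 reads of Timp1 per sham library, limit the glial and Timp1 folds. P-values without the block measure the spread between libraries of a group, with the neuronal and glial libraries of a pool taken as independent. With the block they measure what is left after same-numbered kainate and sham libraries are matched, on 3 residual degrees of freedom.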

Other observations

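ADAMTS-like proteins resemble ADAMTS proteinases but lack the enzyme domain, and several bind fibrillin. Of their 7 genes 0 were called without the block by edgeR at FDR below 0.25 in either fraction (1 in neurons and 0 in glia at an unadjusted p under 0.05, against 2.09% and 2.05% of all genes), and with it 3 were upregulated in neurons (3.19% of all genes) and 1 in glia (2.93%), with none downregulated. Adamtsl2 had 7.99, 14.4 and 9.48 CPM in sham and 12.2, 41.0 and 23.1 CPM in kainate neurons, which overlapped (with the block 1.16 ± 0.26, FDR = 0.00281), and rose in glia too (1.49 ± 0.33, FDR = 0.00341). Thsd4 had 90.3, 50.4 and 71.0 CPM in sham and 132, 97.0 and 103 CPM in kainate neurons, without overlap (0.68 ± 0.19, FDR = 0.031). Adamtsl4 was at 103 to 260 CPM in glia and 2.82 to 19.5 CPM in neurons, where it was also called (0.74 ± 0.20, FDR = 0.0268).

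ADAM proteinases shed membrane proteins. Of 12 genes 0 were called without the block by edgeR in either fraction (1 in neurons and 0 in glia at an unadjusted p under 0.05, against the same shares). With it 2 were upregulated and 1 downregulated in neurons, where 3.19% and 1.9% of all genes were, and 1 up and 1 down in glia, where 2.93% and 2.86% were. Adam19 had 25.0, 17.3 and 22.3 CPM in sham and 45.7, 37.8 and 41.4 CPM in kainate neurons, without overlap (0.96 ± 0.20, FDR = 0.00111). Adam12 followed with 0.58 ± 0.21 (FDR = 0.18). Adam8 was downregulated in neurons (-0.82 ± 0.24, FDR = 0.0452) and upregulated in glia (1.12 ± 0.30, FDR = 0.0211). Adam22, a synaptic receptor without enzyme activity, was downregulated in glia (-0.89 ± 0.22, FDR = 0.0123), with 355 and 180 CPM in sham and 180, 181 and 104 CPM in kainate libraries.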
